A study of Mus musculus with 44 samples.

Results

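A group of 10 genes that respond early to stimulation is described here, all of them named less often than Fos or Arc: Trib1, Tiparp, Midn, Ccn1, Ier2, Ier5, Csrnp1, Gadd45b, Gadd45g and Maff. They are 10 of the 17158 genes in the files, and all 10 were found by their RefSeq accessions. They were chosen by their measured difference between the visual cortex of lit and dark mice, so everything from that contrast is given as a description, without a test. Their levels, translation and poly(A) tails in cultured neurons and in other tissues are also described without a test. The members were listed with earlier results of these data known, so these values cannot be called independent of the choice.

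The visual cortex came from 8 mice kept in the dark for 1 week, of which 4 were then exposed to light for 1 h. The cultures were cortical neurons of newborn mice, pooled from several pups and treated with cytosine arabinoside against dividing cells. The DIV14 cultures (14 days in vitro) were unstimulated, or had 30 min of BDNF or of glutamate and glycine (glu/gly), or had been infected at day 5 with a lentivirus whose synapsin promoter drove GFP alone or with miR-1 or with miR-155. The DIV10 cultures (10 days) were unstimulated or had KCl for 10 or 30 min. Adult hippocampus and adult cortex of male mice and hippocampus of embryos at day 16 completed the set. No group is labelled with a mutation, and the results of the paper name C57BL6J as the mouse strain of the study. The visual cortices were measured by PAL-seq, which counts the 3′ ends of mRNAs as tags and reads the length of each poly(A) tail. Cultures and tissues had RNA-seq, ribosome-protected fragments (RPFs), which mark translated mRNA, and tail sequencing, with 1 library per assay, so that they have no replicates.

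Early response genes are switched on by transcription factors that are already present in the cell, without new protein synthesis, and their mRNAs are usually short-lived. In neurons the calcium and growth factor signals that follow synaptic activity start them. The best known encode transcription factors such as FOS and EGR1. The genes described here act at several points. TRIB1 and midnolin (Midn) direct proteins to degradation, and the GADD45 proteins and TIPARP act on signalling and DNA or protein modification. CCN1 is secreted, and IER2, IER5, CSRNP1 and MAFF are nuclear proteins. Among these nuclear proteins, MAFF is a transcription factor of the small MAF family and CSRNP1 a putative transcription factor.

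The representative transcripts of the 10 genes spanned a median of 5858 nt of genome, against 21050 nt for all 16888 genes with an annotated 3′ UTR, and had a median of 4 exons against 8. Tiparp, at 27072 nt, was the 1 member above the median span. Ier2 (chr8:84661331-84662852, minus strand) and Ier5 (chr1:155096367-155099636, minus strand) each had a single exon. Midn (chr10:80148272-80158368, plus strand), with 9 exons, was the 1 member above the median exon number. Gadd45b (chr10:80930091-80932204, plus strand) and Gadd45g (chr13:51846675-51848475, plus strand) had 4 exons each and coding sequences of 483 and 480 nt. The pentamer AUUUA, the core of AU-rich elements that shorten the life of many early mRNAs, occurred 5 times in the 695-nt 3′ UTR of Ccn1 (chr3:145646971-145649985, minus strand) and 9 times in that of Tiparp (chr3:65528447-65555518, plus strand). It was absent from the 3′ UTRs of Trib1 (chr15:59648654-59657099, plus strand), Ier2, Gadd45b and Gadd45g, and absent from 35.7% of all 3′ UTRs. Csrnp1 (chr9:119971163-119984742, minus strand) held 5 and Maff (chr15:79347520-79359076, plus strand) held 4. Coordinates are those of GRCm38.p6, the mm10 build that the files use.

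The promoters, from 250 bases before to 50 after the start of transcription, were in the RefSeq-based table of GRCm38.p6 for 8 of the 10 genes. They were searched on both strands for TGACGTCA (CRE, the site of CREB), its shorter part TGACG, the CArG box of serum response factor, TATAAA, the AP-1 site TGANTCA and the core site of AHR (GCGTG). The TATA box TATAAA lay in 3 of the 8 promoters (Ccn1, Gadd45b and Gadd45g), against 13.6% of the 32851 promoters in the table. The full CRE lay only in that of Maff, against 1.79% of all promoters. TGACG, which is part of the CRE, lay in 4 (Midn, Ccn1, Csrnp1 and Maff), against 20.8%, while the AHR core lay in 4 (Tiparp, Ccn1, Gadd45b and Maff), against 32.4%. The CArG box and TGANTCA, in 1.63% and 7.81% of all promoters, matched none of the 8. The promoters of 4 genes are shown because they hold a TATAAA or the full CRE, with every match to the searched motifs in capitals. They run 5′ to 3′ on the strand of the gene, at chr3:145649936-145650235 (minus strand) for Ccn1, chr10:80929841-80930140 (plus) for Gadd45b, chr13:51846425-51846724 (plus) for Gadd45g and chr15:79347270-79347569 (plus) for Maff.
Ccn1: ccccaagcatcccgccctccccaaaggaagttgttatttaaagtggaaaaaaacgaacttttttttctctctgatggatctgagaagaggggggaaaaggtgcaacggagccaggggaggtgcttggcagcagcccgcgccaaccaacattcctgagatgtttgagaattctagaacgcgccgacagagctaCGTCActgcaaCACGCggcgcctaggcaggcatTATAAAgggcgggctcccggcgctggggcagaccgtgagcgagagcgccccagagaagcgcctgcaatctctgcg
Gadd45b: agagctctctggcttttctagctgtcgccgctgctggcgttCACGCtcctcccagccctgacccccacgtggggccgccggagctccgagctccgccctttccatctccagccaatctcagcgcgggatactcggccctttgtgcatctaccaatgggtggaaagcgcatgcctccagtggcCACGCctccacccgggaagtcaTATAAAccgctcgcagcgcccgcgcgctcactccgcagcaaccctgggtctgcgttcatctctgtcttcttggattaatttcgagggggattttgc
Gadd45g: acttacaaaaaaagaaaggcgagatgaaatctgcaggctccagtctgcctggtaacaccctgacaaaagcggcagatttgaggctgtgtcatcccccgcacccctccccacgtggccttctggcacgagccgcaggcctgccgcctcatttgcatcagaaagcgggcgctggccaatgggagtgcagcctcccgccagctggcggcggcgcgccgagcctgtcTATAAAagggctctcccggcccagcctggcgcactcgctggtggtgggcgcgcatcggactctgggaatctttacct
Maff: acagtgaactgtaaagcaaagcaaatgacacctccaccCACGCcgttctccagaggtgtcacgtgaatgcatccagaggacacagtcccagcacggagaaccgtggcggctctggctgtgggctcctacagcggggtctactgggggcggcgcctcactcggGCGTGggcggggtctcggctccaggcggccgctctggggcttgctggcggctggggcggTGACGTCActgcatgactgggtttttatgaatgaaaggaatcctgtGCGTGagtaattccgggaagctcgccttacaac
The TATAAA began 25 bases before the start in Ccn1, 46 in Gadd45b and 27 in Gadd45g, and the CRE of Maff began 29 bases before it.

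Tags on genes numbered 1.23 to 4.81 M (in units of 1000000) per visual cortex, RNA-seq reads 0.448 to 7.69 M, RPFs 0.817 to 23.2 M and TAIL-seq tags 0.39 to 1.06 M. A level is given in CPM, the counts of a gene per 1000000 counts on genes. RNA-seq of the cultures was shallow for these genes: Trib1, Csrnp1 and Maff had at most 16 reads in any culture. The RPF libraries, with 8 to 3420 reads per gene in the cultures, carry most of the comparisons there. Of 46 marker genes of neurons, astrocytes, microglia, oligodendrocytes and vessel cells, 44 were tested between lit and dark mice, and 0 were called by edgeR's quasi-likelihood test or by DESeq2 (4 had an unadjusted p under 0.05). The summed astrocyte markers lay between 3968 and 4906 CPM in dark and between 3593 and 3926 in lit mice. Those of oligodendrocytes lay between 1198 and 2171 and between 879 and 1573, those of microglia between 813 and 987 and between 810 and 856, and those of vessel cells between 157 and 332 and between 158 and 286. Their part in the differences was not tested. In bulk samples, fewer cells of a type and less RNA per cell cannot be told apart. In RNA-seq of the cultures, summed neuron markers (3742 to 4821 CPM) exceeded those of astrocytes (1167 to 2219), vessel cells (32 to 871), oligodendrocytes (68.1 to 183) and microglia (26.8 to 120.1).

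After light, 8 of the 10 genes had a higher CPM in every lit mouse than in any dark mouse. Of the 10, 8 passed the filter on low counts that left 9554 genes. Among these 8, 7 had no overlap in CPM and 7 were at least 2-fold higher, against 2.63% and 1.02% of the 9554 genes. Maff, the other gene without overlap, did not pass the filter. The median change of the 8 was 2.39 on the log2 scale, against -0.00471 for all genes. Since these values chose the genes, the counts describe them and nothing is read from the comparison. Gadd45g also fell below the filter.

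**Figure D1:**
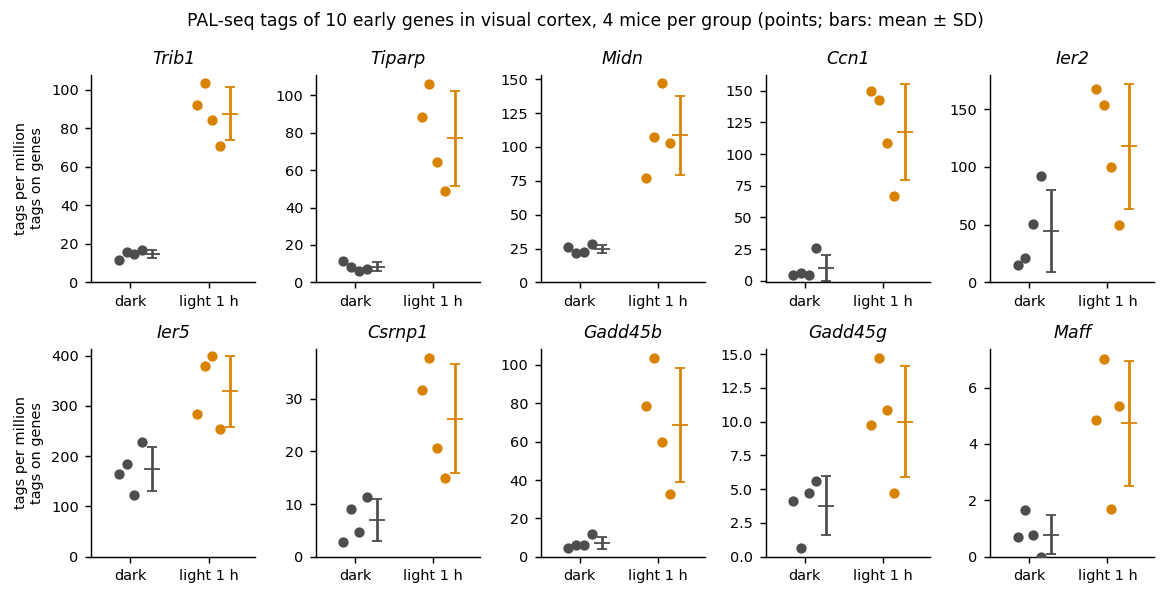
CPM of tags for each of the 10 genes (vertical axes, 1 scale per panel) in 4 dark and 4 lit visual cortices. Points are mice and bars are the mean ± SD; the groups overlap for Ier2 and Gadd45g, whereas every lit mouse lies above every dark mouse for the other 8.

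The regulators of protein stability were Trib1 and Midn. Trib1, a pseudokinase that brings C/EBP factors to the ubiquitin ligase COP1, had 11.6, 15.8, 14.8 and 16.9 CPM in the dark mice and 92.4, 103, 84.4 and 70.7 in the lit mice. The log2 change was 2.57 ± 0.17 (SE, n = 4 and 4). Midn, which carries short-lived transcription factors to the proteasome, had 26.0, 21.6, 22.6 and 28.2 in dark and 77.0, 107, 147 and 103 in lit mice, a change of 2.21 ± 0.18. Neither gene's dark mice overlapped with its lit mice, and the lowest lit mouse stood well above the highest dark mouse.

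Of the signalling genes, Gadd45b, a stress-induced activator of the kinase MAP3K4 that is also linked to DNA demethylation in neurons, had 4.79, 6.03, 6.24 and 12.1 CPM in dark mice. In lit mice it had 78.6, 103, 59.9 and 32.7, a log2 change of 3.33 ± 0.32. Its relative Gadd45g was scarce, with 3 to 7 tags in each dark mouse and 8 to 23 in each lit mouse. These were 3.76 ± 2.19 and 10.0 ± 4.09 CPM (SD, n = 4 and 4), and the groups overlapped. Tiparp, a mono-ADP-ribosyltransferase that restrains the aryl hydrocarbon receptor, had 11.6, 8.31, 6.25 and 7.25 in dark and 88.4, 106, 64.4 and 48.7 in lit mice, a change of 3.20 ± 0.25. Gadd45b and Tiparp thus shared a low dark level that the lit mice exceeded without overlap.

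Ccn1, a secreted protein of the matrix that binds integrins, showed the largest change of the 8 genes fitted, from 4.10, 5.82, 4.68 and 25.8 CPM in dark to 150, 143, 108 and 67.2 in lit mice. The log2 change was 3.77 ± 0.34. Dark mouse 4 held more Ccn1 than the other dark mice together, and without it the change was 4.49.

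Among the nuclear proteins, Ier5, a partner of the heat shock factor HSF1, had the highest level in the dark, with 164, 184, 123 and 227 CPM. It reached 285, 379, 399 and 254 in lit mice, which was the smallest change of the 8 genes fitted (0.94 ± 0.15). Csrnp1, a putative transcription factor named for its cysteines and serines, went from 2.74, 9.14, 4.68 and 11.3 to 31.6, 37.7, 20.5 and 14.9 (1.84 ± 0.35). Maff, a small MAF protein that pairs with NFE2L2 and BACH factors, had 0 to 8 tags in dark mice and 3 to 11 in lit mice. The groups of Ier5 and Csrnp1 did not overlap, and that of Maff differed by 1 lit mouse at 1.71 CPM from a dark mouse at 1.66.

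Ier2, a growth factor-inducible nuclear protein, was the least uniform. The dark mice had 15.05, 20.8, 50.7 and 91.8 CPM and the lit mice 168, 154, 99.8 and 49.9, so that dark mice 3 and 4 exceeded lit mouse 4. The log2 change was 1.57 ± 0.37, and 2.17 without dark mouse 4. Dark mouse 4 and lit mouse 4 also stood at the ends of other members. Dark mouse 4 was the highest of its group for 8 of the 10 genes and lit mouse 4 the lowest of its group for 8 of the 10. Their summed levels of the 52 other early genes were 4037 and 7971 CPM, against 2041 to 3018 in the other dark mice and 10930 to 12840 in the other lit mice.

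Relatives of the members were compared in the same fit. Of 16 paralogues, 10 were tested, and 0 were called by edgeR's quasi-likelihood test with Benjamini-Hochberg adjustment or by DESeq2 (3 had an unadjusted p under 0.05). Trib2, a relative of Trib1, changed by 0.71 ± 0.18 (adjusted p = 0.0582, edgeR) and was called when the mouse number was a block (adjusted p = 0.0413). Gadd45a changed by 0.85 ± 0.22 (adjusted p = 0.0665, edgeR). Mafk, another small MAF, changed by 1.09 ± 0.32 (adjusted p = 0.124, edgeR). Ccn2 and Ccn3, with 81.4 and 320 CPM in the dark, changed by 0.14 ± 0.21 and -0.10 ± 0.12. Of the 10 tested paralogues, 9 had a log2 change above 0, with a median of 0.36.

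Of 26 partners and textbook targets of the members, 19 were tested and 0 were called by edgeR or DESeq2 (2 had an unadjusted p under 0.05), with a median log2 change of 0.02. Cebpb, a C/EBP factor, had the smallest adjusted p among them (0.64 ± 0.16, adjusted p = 0.0508 by edgeR, and 0.0429 with the mouse number as a block). Ahr and Arnt, the receptor pair that drives Tiparp, changed by -0.15 ± 0.34 and -0.35 ± 0.29. Of the 52 other early genes, 41 were tested and 32 rose by edgeR, with 0 lower and a median of 1.85. Egr2, Fosb and Gem had the largest changes among them, at 5.33 ± 0.39, 4.52 ± 0.30 and 4.27 ± 0.45 (adjusted p = 2.99e-09, 7.46e-10 and 1.07e-06, edgeR). That list was drawn up with results of these mice known and is not independent evidence.

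Poly(A) tails differed among the members. The tail values below are means over the tags of a gene in a mouse, and with few tags they vary. Ier5 alone had at least 50 tags in each of the 8 mice, with tails of 79.6, 78.9, 69.5 and 76.5 nt in dark and 84.5, 93.1, 97.6 and 77.1 nt in lit mice, a difference of 12.0 ± 6.68 nt (SE from limma). The median difference of all genes in this fit was 3.75 nt. In all, 10 of 4321 genes were called in this fit (0.231%), and the number ranged from 1 to 21 when single mice were left out.

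Ier2 showed the widest tail difference. Its tails averaged 104, 120, 122 and 120 nt in the dark mice, over 22 to 114 tags, and 60.7, 71.8, 80.2 and 75.9 nt in the lit mice, over 84 to 241 tags. The difference of the means was -44.5 nt, and no lit mouse overlapped with a dark mouse. Of the 11172 genes with a tag in each mouse, 0.26% had such separate groups with the shorter tails in light, and Ier2 was the 1 member among them. In the dark mice Ier2 had tails longer than those of 82.8% to 99.9% of genes with at least 20 tags, and in the lit mice longer than those of 2.25% to 30.2%. The tails of Ier2 in dark mouse 4, whose tag level was the highest of the group, were 120 nt long.

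The other members overlapped between dark and lit mice. Ccn1 averaged 91.7 nt over all tags of the dark mice (72 tags) and 72.9 nt over those of the lit mice (712 tags). Tiparp had short tails in both groups, 53.6 nt over 74 tags and 63.6 nt over 470 tags. Gadd45b had long ones, 138 nt over 59 tags and 129 nt over 419 tags. Midn averaged 121 nt over 206 tags and 128 nt over 694 tags. Trib1 had 72.0, 63.9, 119 and 114 nt in the dark mice and 74.5, 74.1, 104 and 78.0 nt in the lit mice. Its mean of mice was 92.0 nt in dark and 82.5 nt in lit mice, whereas over all tags it was 80.6 nt (133 tags, 76 of them from dark mouse 2) and 83.1 nt (543 tags), so that the direction depended on the weighting.

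**Figure D2:**
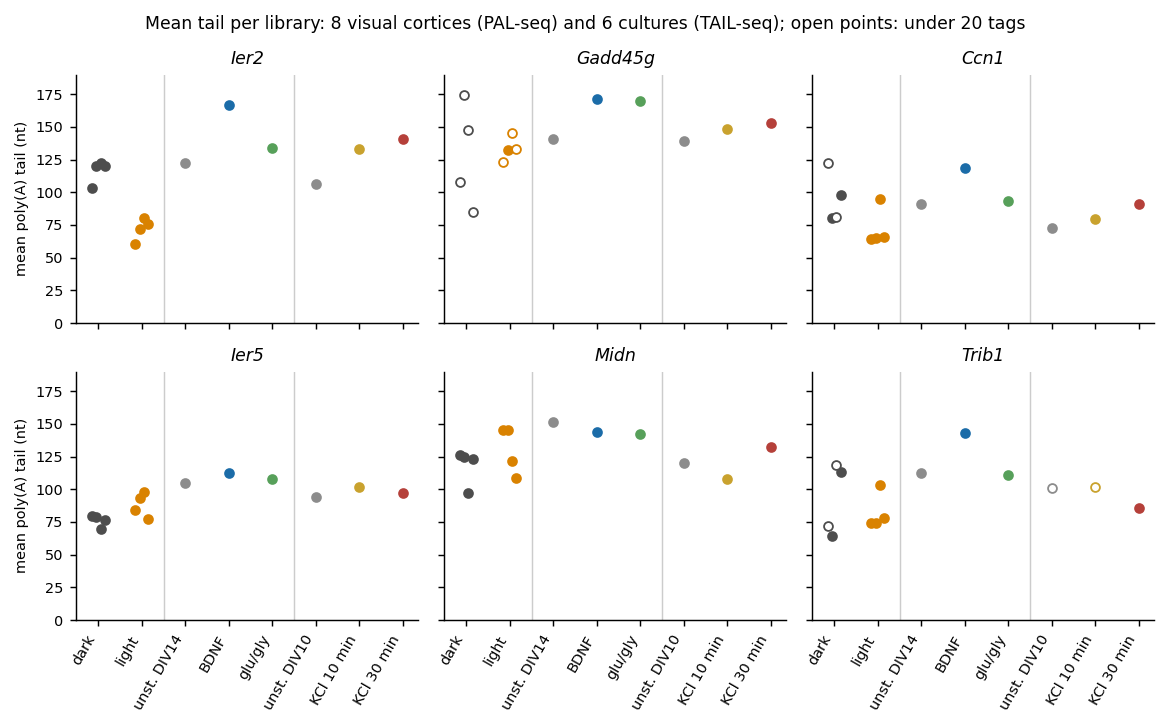
Mean poly(A) tail in nt (vertical axis) of 6 genes in each library: 4 dark and 4 lit visual cortices, and the cultures with the control of each stimulation to its left; filled points have at least 20 tags and open points fewer. Ier2 lies at 104 to 122 nt in dark and 60.7 to 80.2 nt in lit mice, and reaches 167 nt after BDNF.

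The stimulated cultures asked which of the 10 genes responded to single signals. Each stimulation was compared with the unstimulated culture of its age by the ratio of shares of reads on genes, with an exact (Clopper-Pearson) 95% interval that covers counting error only. BDNF and glu/gly share 1 control culture, and both KCl times share another. A gene was counted as higher past a 2-fold difference after 0.5 was added to each count, if it had a mean of at least 20 reads in the 2 libraries. Ier2 and Gadd45g were past 2-fold in RPFs after BDNF, glu/gly and 30 min of KCl. In RNA-seq Ier2 missed the read minimum, and in tags Gadd45g was past 2-fold only after BDNF.

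In RPFs, 3 of 9 members were at least 2-fold higher after BDNF (Ier2, Gadd45g and Gadd45b), against 0.39% of all genes. After glu/gly it was 2 of 9 (Ier2 and Gadd45g), against 0.388%. After 10 min of KCl it was 1 of 10 (Maff), against 0.841%, and after 30 min 4 of 10 (Ier2, Gadd45g, Csrnp1 and Maff), against 1.1%. The shares among members thus exceeded those of all genes, from 1 library per condition. Of the other early genes, 15 of 44 were past 2-fold after BDNF, 14 of 44 after glu/gly, and 10 of 50 and 16 of 50 after 10 and 30 min of KCl. The difference between members and other early genes was not tested. On the authors' scaling the members past 2-fold numbered 0 of 10 at 10 min and 3 of 10 at 30 min of KCl, without Maff.

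In RNA-seq, few members reached the read minimum. Past 2-fold were 1 of 3 after BDNF and 1 of 3 after glu/gly, Gadd45g in both, against 0.638% and 2.13% of all genes. After KCl it was 0 of 5 at 10 min and 1 of 5 at 30 min (Gadd45g), against 0.371% and 1.63%. In TAIL-seq tags, 2 of 8 were past 2-fold after BDNF (Ier2 and Gadd45g) and 2 of 8 after glu/gly (Ier2 and Ccn1), against 0.563% and 0.471%. After KCl it was 0 of 5 at 10 min and 2 of 7 at 30 min (Ier2 and Tiparp), against 0.698% and 1.2%. Ier2 missed the RNA-seq minimum, since the unstimulated cultures held 2 and 8 of its reads.

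Ier2 had the largest RPF ratios of the members after BDNF, glu/gly and 30 min of KCl, though not after 10 min, where Maff was higher. Its RPFs went from 41 in the unstimulated DIV14 culture (9.45 CPM) to 648 after BDNF (175 CPM), a ratio of 18.5 (95% interval 13.5 to 26.1), and to 197 after glu/gly, a ratio of 7.41 (5.27 to 10.6). Its RNA-seq reads went from 2 to 35 and 12, ratios of 18.6 (4.77 to 159) and 5.07 (1.13 to 46.7). Its tags went from 25 to 272 and 84, ratios of 10.7 (7.11 to 16.9) and 4.38 (2.78 to 7.15). RPFs and RNA thus gave overlapping intervals after each of these stimulations, although the RNA intervals are wide. With KCl the RPFs of Ier2 went from 95 to 109 at 10 min and 256 at 30 min, ratios of 1.97 (1.48 to 2.62) and 8.38 (6.60 to 10.7). Its RNA ratios were 1.40 (0.36 to 4.86) and 3.34 (1.38 to 8.87), and its tag ratios 1.72 (0.99 to 3.07) and 5.34 (3.40 to 8.78).

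Gadd45g followed. Its RPFs went from 145 to 694 after BDNF and 281 after glu/gly, ratios of 5.61 (4.69 to 6.76) and 2.99 (2.44 to 3.68). The RNA-seq ratios were 7.62 (4.04 to 15.9) and 3.46 (1.76 to 7.42). The tag ratios were lower, at 3.37 (2.57 to 4.46) and 1.79 (1.30 to 2.47). With 30 min of KCl its RPFs, RNA and tags stood at 2.4 (2.02 to 2.85), 2.5 (1.62 to 3.91) and 1.78 (1.25 to 2.57), and at 10 min at 1.27 (1.07 to 1.52), 1.22 (0.66 to 2.19) and 0.96 (0.62 to 1.49). On the authors' scaling the RNA-seq ratio at 30 min was 1.77 instead of 2.5. Gadd45g was thus among the members with the clearest difference in the cultures and among the scarcest in the visual cortex.

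**Figure D3:**
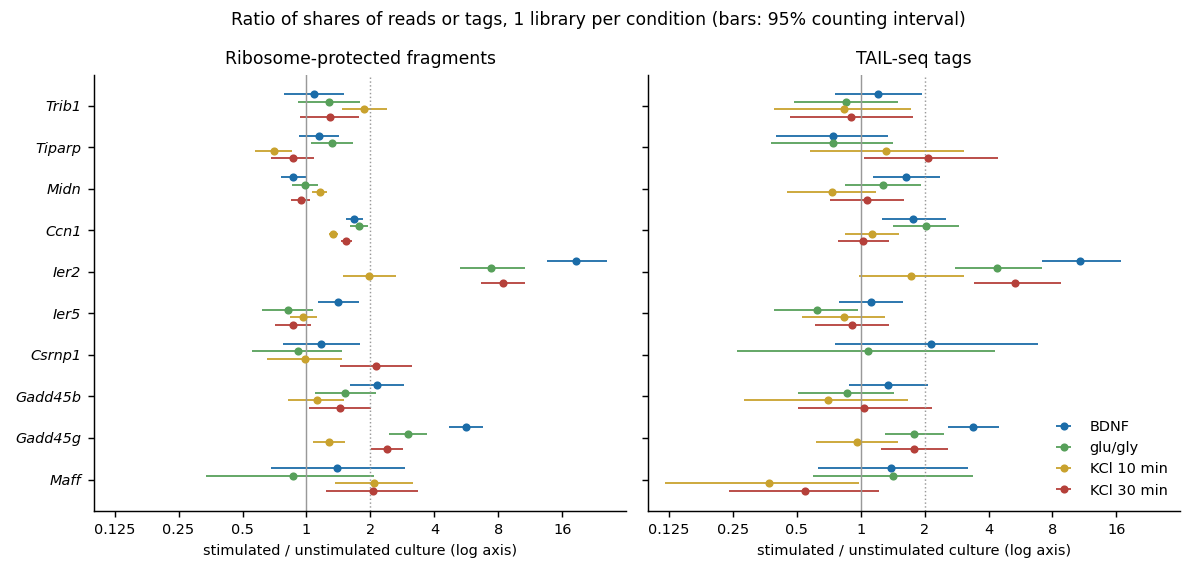
Ratio of each stimulated culture to its unstimulated control (horizontal log axis) for the 10 genes in RPFs (left) and TAIL-seq tags (right), with 95% counting intervals; genes with under 5 counts in either library are not drawn. Ier2 reaches 18.5 in RPFs after BDNF and Gadd45g 5.61, while most other points lie between 0.5 and 2.

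Gadd45b differed less. Its RPFs went from 76 to 139 after BDNF, a ratio of 2.14 (1.61 to 2.88), and to 75 after glu/gly, 1.52 (1.09 to 2.12). With KCl the ratios were 1.12 (0.82 to 1.51) and 1.44 (1.02 to 2.02), the first of which was 0.98 on the authors' scaling. The RNA-seq ratio after BDNF was 2.03 (0.93 to 4.65) from 11 and 21 reads, and the tag ratio 1.35 (0.88 to 2.07).

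Ccn1 had RPF ratios above 1 after all 4 stimulations, with intervals that did not reach 1. Its RPF ratios were 1.68 (1.53 to 1.84) after BDNF, 1.76 (1.605 to 1.94) after glu/gly, and 1.34 (1.27 to 1.41) and 1.54 (1.45 to 1.63) after KCl for 10 and 30 min. The RNA-seq ratios were 1.12 (0.75 to 1.69), 1.03 (0.70 to 1.53), 1.08 (0.80 to 1.46) and 1.06 (0.81 to 1.38). The RNA-seq intervals included 1 in each case, but overlapped with the RPF interval after BDNF and after 10 min of KCl. On the authors' scaling the RNA-seq ratio was 1.21 at 10 min, against 1.18 in RPFs, and 0.75 at 30 min, against 1.48. Its tag ratios were 1.77 (1.26 to 2.52) after BDNF and 2.03 (1.42 to 2.91) after glu/gly. After KCl the tag ratios were 1.13 (0.85 to 1.51) and 1.03 (0.78 to 1.36). The summed markers of vessel cells in RNA-seq were 409 CPM in the DIV14 control, 165 after BDNF and 208 after glu/gly, and 871 in the DIV10 control, 512 and 408 after 10 and 30 min of KCl, and their part in the ratios of Ccn1 was not tested.

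Trib1, Midn, Ier5 and Tiparp lay below 2-fold in RPFs under each stimulation. The RPF ratios of Trib1 were 1.09 (0.78 to 1.51) after BDNF, 1.28 (0.91 to 1.78) after glu/gly, 1.87 (1.47 to 2.38) after 10 min and 1.29 (0.93 to 1.77) after 30 min of KCl. Those of Midn lay between 0.87 and 1.15 and those of Ier5 between 0.82 and 1.41. Tiparp ranged in RPFs from 0.70 (0.57 to 0.86) at 10 min of KCl to 1.32 (1.05 to 1.66) after glu/gly. With 30 min of KCl its RNA-seq ratio was 1.78 (1.25 to 2.55), or 1.26 on the authors' scaling, and its tag ratio 2.08 (1.04 to 4.43), whereas its RPF ratio was 0.86 (0.68 to 1.09). These intervals leave room for differences below 2-fold. The light exposure lasted 1 h and the stimulations at most 30 min, so the 2 sets of values stand side by side and were not compared.

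The scarce genes Csrnp1 and Maff were past 2-fold only under KCl in RPFs. Csrnp1 had 70 RPFs in the unstimulated DIV10 culture and 48 in a smaller library at 30 min, a ratio of 2.13 (1.44 to 3.12). Maff had 44 RPFs in the control, 53 at 10 min and 29 at 30 min, ratios of 2.07 (1.36 to 3.16) and 2.05 (1.24 to 3.35). On the authors' scaling these were 1.82 and 1.97, below 2-fold. Its RNA-seq and tag ratios at 30 min lay below 1, at 0.49 (0.12 to 1.63) from 12 and 4 reads and 0.55 (0.24 to 1.22) from 17 and 12 tags.

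Tails were compared in the cultures where a gene had at least 50 tags in both libraries. After BDNF 2 of 4 members had mean tails at least 10 nt longer, Gadd45g and Ccn1, against 6.27% of all genes. Gadd45g went from 141 to 171 nt and Ccn1 from 91.1 to 119 nt, while the median difference of all genes was -1.04 nt. After glu/gly it was 1 of 2, against 2.79%, with Gadd45g at 169 nt and Ccn1 at 93.0 nt. With KCl only Ccn1 had enough tags, at 72.7 nt in the control, 79.5 nt at 10 min and 91.2 nt at 30 min, which made it 0 of 1 at 10 min against 7.79% and 1 of 1 at 30 min against 11.8%. Both genes also had more tags after BDNF and after glu/gly. Tails had no replicate here, and their spread within a gene is unknown.

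Ier2 had 25 and 22 tags in the control cultures, under that minimum. Its mean tails went from 122 nt to 167 nt after BDNF and 134 nt after glu/gly. With KCl they went from 106 nt to 133 nt at 10 min and 140 nt at 30 min. In all 4 stimulated cultures the tails of Ier2 were thus longer than in the control, by 11.7 to 44.8 nt. In the visual cortex they were shorter in lit than in dark mice. The cultures were sampled after 10 or 30 min by TAIL-seq, and the lit mice after 1 h by PAL-seq in tissue of mixed cell types. The paper attributes the greater tendency to longer tails in culture to the earlier time point, without excluding differences between the systems. Cultures and visual cortex were therefore not compared. The culture values are from single libraries with 22 to 272 tags of Ier2. Trib1, with 35 and 43 tags, had 113 nt in the control and 143 nt after BDNF.

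Some members held a like place among the tails across cultures. In the 9 cultures, Gadd45g reached 20 tags in 7 libraries, and in each its mean tail of 139 to 171 nt was longer than those of 98.3% to 99.98% of genes. Gadd45b, in 4 libraries, had 126 to 165 nt, longer than 92.5% to 99.9% of genes. Midn lay above the library median in 8 of 8 libraries, at 108 to 152 nt. Tiparp lay below it in 3 of 3, at 90.0 to 99.8 nt, and Ccn1 in 5 of 6, at 72.7 to 119 nt. The library medians over genes with at least 20 tags were 99.8 to 111.6 nt.

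Translational efficiency (TE) sets the RPFs of a gene against its RNA-seq reads, both in RPM as deposited, and is given as log2. It was taken where a gene had at least 10 RPM in RNA-seq, which 6 members reached in at least 1 of the 10 settled libraries, in 23 values. The members lay on both sides of the library medians. Ccn1 reached the cutoff in 6 cultures and was above the median in 6 of 6, with log2 TE of 2.59 to 4.16. There it was translated more efficiently than 91.8% to 99.0% of the genes of its library. Under the cutoff it had 2.41 in the GFP culture, 2.96 in adult cortex and 2.33 in embryonic hippocampus. In adult hippocampus it had -0.47 (-1.16 to 0.21), above 13.3% of genes, from 38 reads and 39 RPFs. Ier2 reached the cutoff only after BDNF, at 2.82 (95% interval 2.33 to 3.35), above 94.9% of genes.

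Midn and Ier5 reached the cutoff in tissues. Midn had log2 TE of 2.32 (2.13 to 2.51) in adult and 1.67 (1.597 to 1.739) in embryonic hippocampus, above 96.6% and 90.7% of genes. Ier5 had 2.39 (2.18 to 2.60) in adult hippocampus, 1.31 (1.22 to 1.40) in embryonic hippocampus and 2.63 (2.35 to 2.91) in adult cortex. Gadd45g was moderately above the median in 4 of 4 libraries, by 0.20 to 0.85 on the log2 scale. Tiparp was below the median in 7 of 7. It lay 0.29 below in the GFP culture and as much as 2.10 below in embryonic hippocampus, where its log2 TE was -1.43 (-1.74 to -1.12). Midn had high TE in the hippocampi, where tails were not compared, and its long tails were those of cultures and cortex. Under the cutoff, its log2 TE was 4.02 (3.56 to 4.52) in the unstimulated DIV10 culture, from 38 reads. In adult cortex it was 2.94 (2.53 to 3.37), from 53 reads. These values lay above 99.7% and 97.0% of genes, so high TE and long tails of Midn occurred in the same sources. Ccn1 had high TE in 6 cultures. Its mean tail lay below the library median in these except after BDNF, where 118.5 nt exceeded the tails of 72.3% of genes. No link between tails and TE was tested for the members.

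Within the cultures, the TE of Ccn1 minus the library median was 1.45 in the unstimulated DIV14 culture, 2.03 after BDNF and 2.15 after glu/gly. In the DIV10 cultures it was 2.01 without KCl, 2.4 at 10 min and 2.73 at 30 min. The counting intervals of the control overlapped with those after BDNF, glu/gly and 10 min of KCl, and before centring the log2 TE was 3.19 without KCl and 3.14 at 10 min. Gadd45g and Ier2 had no TE in the unstimulated cultures, where their RNA stayed below the cutoff. The TE of Tiparp minus the median was -0.41, -0.44 and -0.36 in the 3 DIV14 cultures, which differ by less than the counting intervals.

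The sources differed in which member was abundant. Per length, Midn led the RPFs of embryonic hippocampus at 242 RPKM, followed by Ier5 at 195 and Gadd45g at 118. Ccn1 led both unstimulated cultures, at 193 RPKM in the DIV10 and 117 in the DIV14 culture. Ier5 led adult hippocampus and adult cortex, at 65.2 and 119 RPKM. Maff had 0 RPFs in both hippocampi, where a count of 0 allows up to 3 reads, and 9 in adult cortex.

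**Figure D4:**
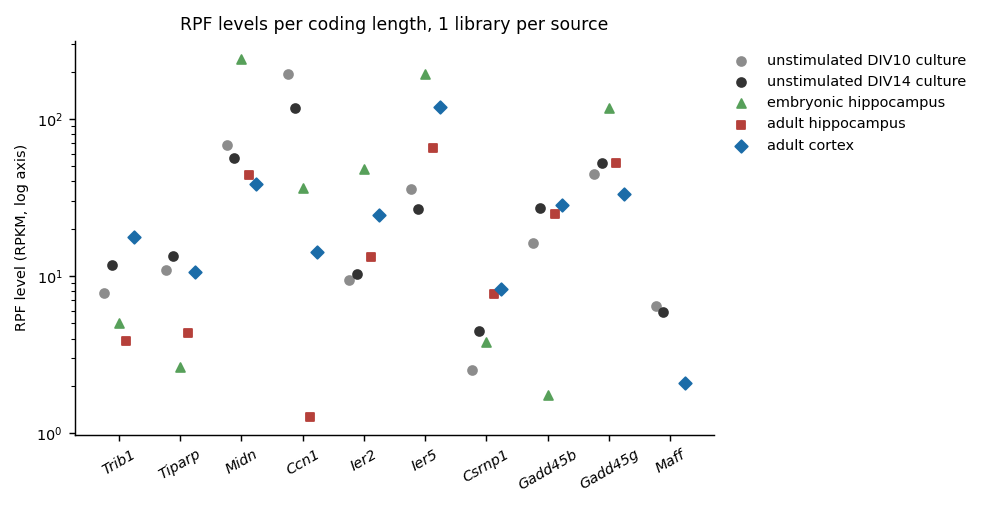
RPF level in RPKM (vertical log axis) of the 10 genes in 5 unstimulated sources, 1 library each; Maff had no RPFs in either hippocampus and has no point there. Ccn1 ranges from 1.27 RPKM in adult hippocampus to 193 in the DIV10 culture, and Midn reaches 242 in embryonic hippocampus.

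Embryonic and adult hippocampus, both of poly(A)-selected RNA, were compared directly, with 1 library each. Of 9 members, 5 were at least 2-fold higher in the embryo in RNA-seq and 5 in RPFs, against 26.5% and 33.4% of all genes. Of the 9, 2 were at least 2-fold lower in each assay, against 21.2% and 29.3%. The shares of members thus stood beside large shares of all genes that differed between these tissues. Midn was 6.93 times as abundant in the embryo in RNA-seq (95% interval 6.08 to 7.93) and 5.36 times in RPFs (5.10 to 5.64). Ier5 stood at 5.05 (4.36 to 5.87) and 2.90 (2.74 to 3.07), and Ier2 at 4.44 (3.06 to 6.59) and 3.53 (3.05 to 4.10). The embryonic library thus held more Midn, Ier5 and Ier2. The summed markers in RNA-seq also differed, at 3030 CPM in the embryo and 8762 in the adult for neurons, 877 and 3369 for astrocytes, 104 and 521 for microglia, 41.7 and 1840 for oligodendrocytes, and 149.8 and 203 for vessel cells. Their part in the differences was not tested.

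Ccn1 was 3.29 times as abundant in embryonic RNA (2.28 to 4.85) and 27.8 times in RPFs (20.2 to 39.3). Gadd45b was the opposite, at 0.33 (0.19 to 0.54) in RNA-seq and 0.068 (0.042 to 0.106) in RPFs. Csrnp1 was also lower in the embryo, at 0.23 (0.15 to 0.35) and 0.48 (0.40 to 0.57). Tiparp stood at 1.90 (1.51 to 2.405) in RNA-seq and 0.59 (0.48 to 0.72) in RPFs, on opposite sides of 1.

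Ccn1 also varied among the cultures in RNA-seq. The 6 cultures without virus had 98.3 to 128 CPM and the cultures with GFP, miR-1 and miR-155 had 53.6, 17.6 and 28.9. The summed endothelial and mural markers of the cultures without virus ran from 165 to 871 CPM, against 201, 32 and 87.6 in the same 3. Between 2 and 5 of these 10 markers were at 0 in each RNA-seq library of the cultures. The part of other cell types in the level of Ccn1 was not tested. The paper describes batches of cultures without saying which cultures formed each, so virus and batch cannot be told apart. Tiparp, by contrast, had 50.4 to 96.0 CPM over the 9 cultures, with no gap between those with and without virus.

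Over the 9 cultures, the genes whose RNA-seq level followed the mean of the centred members most closely were Mcrip1 (Pearson's r = 0.91), Irs2 (0.91), Zfp697 (0.87), Ppp1r15a (0.87) and Ric8b (0.86), among 7380 genes with a mean of at least 20 reads. The members' mean was highest after BDNF, at 0.93 on the log2 scale above its average, and lowest in the GFP culture, at -0.77. These coefficients are the highest of 7380, and how high they would be by chance was not tested. They describe 9 single libraries that share their depth with the members, and none of the 5 genes was on the list of early genes.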

How the data were processed

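PAL-seq v2 tags of 8 visual cortices, and RNA-seq, RPFs and TAIL-seq or PAL-seq tags of 9 cultures and 3 tissues, were analysed from 44 samples. For RNA-seq and RPFs, the deposited values are a read count per gene, made by the authors from reads on the open reading frame without its first 50 nt, with the authors' RPM and RPKM; that RPM uses a total beyond the genes in the files. A log2 TE was also deposited by the authors, the log2 ratio of RPF to RNA-seq values. For tails the authors deposited a tag count and the mean tail length in nt; the 2 hippocampi have medians and were not compared. The submitters' processing notes name STAR 2.4.2, bedtools and mm10. RNA of both hippocampi was poly(A)-selected, and that of 6 cultures and adult cortex was depleted of ribosomal RNA.

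Tags on synthetic standards, 1.41% to 19% of the tags of a library, were left out. CPM are counts per 1000000 on genes. Light was tested with edgeR 4.0.16 (quasi-likelihood test after TMM scaling and filterByExpr) on the counts of tags and limma 3.58.1 on mean tails of genes with at least 50 tags in each mouse, with Benjamini-Hochberg adjustment over all genes at 0.05; the fits were tested on simulated data. The SE of a log2 change is the change divided by the square root of its F statistic. The p-values of edgeR measure the spread between mice, and those of limma use a spread between mice that was shared among genes. The members and all gene lists were chosen with earlier results of these data known. Named were all members, relatives described, at most 3 called genes per list by size of change, and the 5 genes nearest in pattern; Cebpb was named after its value was seen. Alternatives were RLE scaling, no filter, DESeq2 1.42.0, the mouse number as a block, single mice left out, other tag and read minimums and the authors' RPM. Columns of the combined light table and the 2 TE columns of RPF libraries with contradictory labels were not used. Of 17158 accessions, 17010 had a symbol. Intervals and floors cover counting error only.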

Additional observations from a re-analysis of the deposited data

Results flagged for a closer look

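Within the groups of 4 mice, 39 sets of member values were examined for a mouse far from the rest of its group, and 7 were flagged because the gap to the next mouse exceeded Dixon's 95% critical share of the whole range. Chance flags about 1 in 20 such sets. Of these, 1 concerned a level, that of Ccn1 in dark mouse 4, at 25.8 CPM. The other 6 concerned mean tails: Trib1 in lit mouse 3 at 103.5 nt, Tiparp in dark mouse 1 at 90.2 nt, Midn in dark mouse 3 at 97.1 nt, Ccn1 in lit mouse 3 at 94.8 nt, Ier2 in dark mouse 1 at 103.6 nt and Csrnp1 in dark mouse 1 at 92.8 nt. Dark mouse 1 had 17 tags of Tiparp, 22 of Ier2 and 4 of Csrnp1. In lit mouse 3 the tails of Trib1 and Ccn1 rested on 148 and 190 tags. The median tail over genes with at least 20 tags was lowest in dark mouse 3, at 77.1 nt, and highest in lit mouse 3, at 97.9 nt. The part of these library medians in the flags of Midn, Trib1 and Ccn1 was not tested.

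The 2 RPF libraries whose labels contradict each other entered no comparison. More than 3 RPFs were found for 9 members in one of them and for 10 in the other.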

How the results depend on the processing

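The log2 changes of the 8 fitted members kept their direction under RLE scaling, no filter, DESeq2, the block and each mouse left out; those without single mice ranged from 3.41 to 4.49 for Ccn1 and from 1.21 to 2.17 for Ier2. Without the filter 9 of 10 members were at least 2-fold higher, with Gadd45g at 1.73 ± 0.48 and Maff at 2.16 ± 0.70. Without a filter on counts, 2 paralogues (Trib2 and Gadd45a) and 1 partner (Cebpb) were called, and 192 genes in all against 128. With the mouse number as a replicate block, 1 paralogue, 1 partner and 113 genes were called, and 1 tail in place of 10. The number only names the mice: same-numbered mice correlated in their deviations at -0.196 to 0.0311, and 0 of 4 pairs exceeded 0.1. Without single mice, called paralogues, partners and cell markers numbered 0 to 1 each and called tails 1 to 21; tails on the log2 scale gave 1. The 1 marker was Gfap, lower without dark mouse 2 (adjusted p = 0.0279, edgeR). Trib2 was called without dark mouse 3 or lit mouse 2, Gadd45a without dark or lit mouse 4, and Cebpb without dark mouse 4, lit mouse 3 or lit mouse 4. Called tails numbered 1 without dark mouse 3, dark mouse 4 or lit mouse 2, 2 without dark mouse 2 or lit mouse 3, 19 without dark mouse 1 and 21 without lit mouse 4.

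In the cultures, no read minimum gave 2 members past 2-fold in RNA-seq after BDNF, 4 after glu/gly and 2 after 30 min of KCl, and 1 in tags after 10 min of KCl. The authors' RPM gave 0 in RPFs at 10 min and 0 in RNA-seq at 30 min of KCl. It moved all ratios by 0.119 (RNA-seq) and -0.186 (RPFs) on the log2 scale after glu/gly, 0.166 and -0.184 at 10 min, and -0.5 in RNA-seq at 30 min. Adding 1 tag instead of 0.5 left 1 member past 2-fold in tags at 30 min. With 20 tags as the minimum, 5 of 8 members had tails 10 nt longer after BDNF, 2 of 7 after glu/gly, 1 of 5 at 10 min and 4 of 5 at 30 min; no member had 100 tags in both libraries. The TE values below the library median, 7 of 23 and all of Tiparp, were 7 with the deposited log2 TE and 0 of 3 at 30 RPM, which Tiparp did not reach. Depth limits Trib1, Csrnp1 and Maff most.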

Other observations

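Among the RPF libraries with contradictory labels, the smaller had 68.5 CPM for Gadd45g, 41.6 for Ccn1, 29.4 for Trib1 and 23.2 for Ier2. The larger had 61.6 for Gadd45g, 62.1 for Ccn1, 14.5 for Trib1 and 16.5 for Ier2. The GFP culture had 33.2, 82.0, 14.9 and 11.2 for the same genes in this order. Midn stood at 132, 120 and 117 in the 3 libraries. No group can be given for the first pair, and the differences were not tested.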
